A study of Saccharomyces cerevisiae BY4743 with 24 samples.

Results

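The disome pool was set against the monosome pool of yeast cells held at 42 °C. The comparison used 6 of the 24 RNA libraries of the series, picked by their titles: pool 2 and pool 1 of 3 gradients at 42 °C, with the pools of a replicate number taken from the same sucrose gradient. Library names call pool 1 mono and pool 2 di. All libraries came from Saccharomyces cerevisiae BY4743, a diploid laboratory strain, grown in complete synthetic medium with 2% raffinose and 0.005% glucose to mid-log phase at 30 °C. The 42 °C cells were then caught on a filter, resuspended in medium at 42 °C and kept there for 30 min, and the 30 °C cells, which serve here for comparison only (3 gradients, 6 libraries), were sampled without filtration. Cycloheximide, which stops elongating ribosomes, was added at harvest, spike-in RNA was added to each pool, and libraries were made by Stranded SMART-Seq from RNA in which rRNA had not been depleted. The labels do not say whether the 3 gradients came from separate cultures, so p-values measure the spread between these samples, which may be technical.

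In a sucrose gradient an mRNA with a single ribosome sediments with the monosome peak and an mRNA with a pair of ribosomes with the disome peak. Ribosomes joined without mRNA sediment in the monosome peak as well, and such vacant couples are known to build up when initiation slows under stress. The ratio of mRNA to ribosomal RNA in a pool therefore bears on how much of the ribosomal material in it is accompanied by mRNA, and the level of each mRNA among the mRNAs of a pool bears on which messages are there. The 25S and 5.8S rRNAs and the 5S rRNA belong to the large ribosomal subunit, and the 18S rRNA to the small one. A short open reading frame has room for few ribosomes, so coding length is a known correlate of position in the gradient.

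Values are TPM, in which reads are divided by transcript length and scaled to a sum of 1000000 in every library. Ribosomal RNA held between 97.9% and 98.6% of the TPM of the disome libraries and between 99.5% and 99.8% of that of the monosome libraries. Read depth cannot be had from TPM directly. Its low values are whole multiples of a step, and in mRNAs of ordinary length this step, taken as 1 read, was worth 9.41, 6.95 and 6.81 mRNA TPM in the disome libraries of gradients 1, 2 and 3, and 11.2, 14.9 and 15.5 in the monosome libraries (mRNA TPM is TPM rescaled so that the mRNAs of a library sum to 1000000). In monosomes of gradient 1, mRNAs with spans from 507 to 1212 nt shared the step. Shorter transcripts could have a much larger step, such as 590 mRNA TPM for YLR157C-C (132 nt) in disomes of gradient 1. The heat response was present in all 6 libraries: HSP104, which encodes the Hsp104 disaggregase, had 4706, 6132 and 6116 mRNA TPM in disomes and 6942, 8539 and 8574 in monosomes, against at most 36.7 in the disome and monosome libraries at 30 °C. SSA4 and HSP26, which encode an inducible Hsp70 and a small heat shock protein, had at least 4220 and 16713 mRNA TPM at 42 °C and at most 4.84 and 12.2 at 30 °C. Logarithms of replicate libraries correlated between 0.79 and 0.82 within the disome pool and between 0.70 and 0.71 within the monosome pool, across genes, which are not independent replicates.

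More mRNA went with the large-subunit rRNA in disomes than in monosomes. Per 1000 TPM of 25S rRNA, the mRNAs together had 31.6, 38.2 and 47.5 TPM in the disome libraries of gradients 1, 2 and 3, and 14.7, 16.1 and 14.9 TPM in the monosome libraries. The groups did not overlap, and the 3 monosome values lay much closer together than the 3 disome values. The disome value was 2.16, 2.38 and 3.18 times the monosome value of the same gradient, a mean log2 difference of 1.34 ± 0.29 (SD, n = 3 gradients) or 2.53-fold. An exact two-sided sign-flip test over the 3 gradients gave p = 0.25, the smallest value it allows, and an exact permutation of 3 against 3 libraries gave p = 0.1, also the smallest.

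The same ratio was also higher in disomes at 30 °C, by less. There it stood at 117.6, 114.3 and 98.4 TPM of mRNA per 1000 TPM of 25S rRNA in disomes and 63.4, 74.7 and 71.6 in monosomes, a mean log2 difference of 0.65 ± 0.22 (SD, n = 3) or 1.57-fold. The 42 °C difference exceeded the 30 °C difference by 0.69 on the log2 scale, and each of the 3 gradients at 42 °C lay above each of those at 30 °C. Exact permutation of the 3 against 3 gradient differences gave p = 0.1, the smallest it allows, so this did not pass 5%. In the plot of ratios by library, both pools at 42 °C lie below their level at 30 °C.

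**Figure D1:**
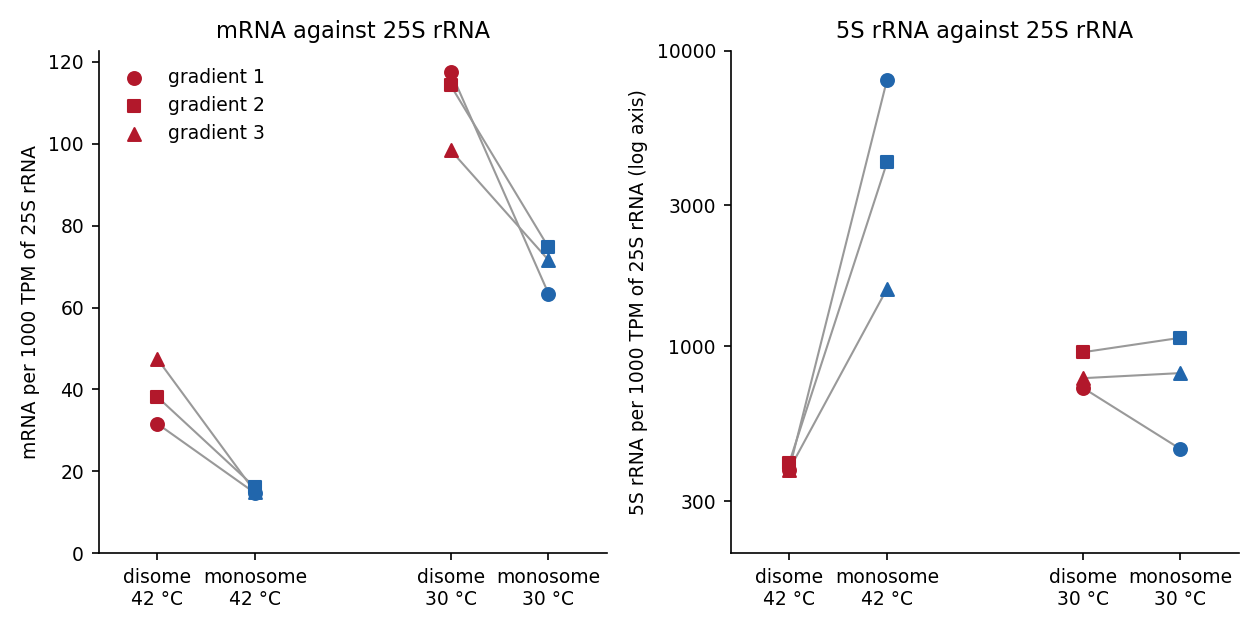
TPM of all mRNAs (left, linear axis) and of 5S rRNA (right, log axis) per 1000 TPM of 25S rRNA in each library, with disome (red) left of monosome (blue) at 42 °C and at 30 °C; symbols are the 3 gradients and lines join pools of the same gradient. At 42 °C the disome libraries hold 31.6 to 47.5 TPM of mRNA, all above the 14.7 to 16.1 of the monosome libraries, and 383 to 404 TPM of 5S rRNA, all below the 1567 to 7967 of the monosome libraries.

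The size of the mRNA difference depended on the RNA it was set against. It was 2.43-fold against 18S rRNA, 4.42-fold against the spike-ins and 6.63-fold against all rRNA entries, a sum that includes 5S rRNA. Against the spike-ins it was 4.62-, 4.06- and 4.59-fold in gradients 1, 2 and 3. The exact sign-flip test over these gradients gave p = 0.25, the smallest it allows. An exact permutation of 3 against 3 libraries, which ignores the pairing by gradient, gave p = 0.3. The spike-ins differed widely between gradients, with 44.0, 383 and 370 TPM in disomes and 22.7, 246 and 345 in monosomes. Without the 20 most abundant mRNAs, which held 42.9%, 48.9% and 43.5% of the mRNA sum in disomes and 36.7%, 43.8% and 33.99% in monosomes, it was 2.25-fold against 25S rRNA. Deposited mRNA entries that overlap an rRNA gene (TAR1, YLR154C-G and YLR157C-C) held 0.28% to 0.46% of the mRNA sum in disomes and 1.72% to 5.79% in monosomes, and without them the difference was 2.62-fold.

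The 5S rRNA set the pools apart the other way. It took 15.5%, 16.6% and 15.99% of all TPM in the disome libraries and 77.3%, 64.8% and 42.1% in the monosome libraries. Per 1000 TPM of 25S rRNA it stood at 384, 404 and 383 TPM in disomes, and at 7967, 4189 and 1567 TPM in monosomes of gradients 1, 2 and 3. The disome libraries lay close together, the monosome libraries spread widely, and the groups did not overlap. The log2 differences by gradient were −4.38, −3.37 and −2.03, with a mean of −3.26 ± 1.18 (SD, n = 3), so that the 5S ratio was 9.58-fold lower in disomes. The exact sign-flip test gave p = 0.25 and the exact 3 against 3 permutation p = 0.1, each the smallest it allows.

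At 30 °C the difference in 5S rRNA was small and mixed in sign. Its level per 1000 TPM of 25S rRNA was 726, 956 and 781 TPM in disomes and 450.2, 1070 and 813 TPM in monosomes, groups that overlap, with a mean log2 difference of 0.16 ± 0.46 (SD, n = 3). The 42 °C difference minus the 30 °C difference was −3.42, and exact permutation of the gradient differences gave p = 0.1, the smallest it allows. The disome libraries at 42 °C lay below the whole 30 °C range of 450.2 to 1070, and the monosome libraries at 42 °C above it. TPM of an RNA as short as 5S rRNA depends on the length the quantification assigns to it, so the level itself is uncertain, whereas a constant length would cancel between libraries.

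The other rRNAs of the ribosome moved less. The 18S rRNA, of the small subunit, stood at 813, 776 and 799.7 TPM per 1000 TPM of 25S rRNA in disomes and 784, 725 and 781 in monosomes, a mean log2 difference of 0.06 ± 0.03 (SD, n = 3), so the subunits kept nearly the same ratio in both pools. The 5.8S rRNA, which is base-paired to 25S rRNA in the large subunit, stood at 249, 207 and 164 TPM in disomes and 531, 532 and 354 in monosomes on the same scale, 2.28-fold lower in disomes. At 30 °C the 5.8S ratio stood at 584, 364 and 242 TPM in disomes and 311, 416 and 250.3 TPM in monosomes. Against 5.8S rRNA the 5S rRNA was 4.202-fold lower in disomes. The entry of the 35S precursor was 2.01-fold lower in disomes against 25S rRNA, in 3 of 3 gradients, while the groups overlapped (p = 0.2 by exact permutation of 3 against 3 libraries). At 30 °C it was 1.44-fold lower, also in 3 of 3 gradients. Whether the reads of this entry came from the precursor or from mature rRNA was not tested.

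Small non-coding RNAs were mostly lower in disomes, too, when set against 25S rRNA. Of 113 such entries, 29 were above 0 in all 6 libraries; 16 of the 29 were lower in disomes in 3 of 3 gradients, 2 were higher in 3 of 3, and the median log2 difference was −0.66. The SCR1 RNA of the signal recognition particle, which guides ribosomes to the endoplasmic reticulum, had 623, 187 and 184 TPM per 1000000 TPM of 25S rRNA in disomes and 1767, 522 and 377 in monosomes. The RPR1 RNA of RNase P, which trims tRNA precursors, had 105.4, 51.5 and 54.5 TPM on that scale in disomes and 334, 230 and 147 in monosomes. NME1, the RNA of RNase MRP, had 55.6, 11.1 and 13.5 TPM in disomes and 456, 86.8 and 29.6 in monosomes. The spliceosomal U6 RNA, SNR6, stood at 274, 311 and 270.3 TPM in disomes and at 1889, 1102 and 657 in monosomes. For RPR1 and SNR6 the 3 disome libraries lay below all 3 monosome libraries, and for SCR1 and NME1 every disome library lay below the monosome library of its own gradient while the groups overlapped. U1 RNA, SNR19, differed by a mean log2 of −0.18 only. These RNAs belong to particles other than the ribosome.

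Against this shift of the whole mRNA pool, few single mRNAs stood out. Each mRNA was set against the median mRNA of its library. After adding a pseudocount of 1 to mRNA TPM and taking log2, the median tested mRNA was subtracted. For an mRNA well above the pseudocount, a log2 difference of 0 means that it kept pace with the typical message. An mRNA at 0 in both pools instead gets the difference between the library medians, which is above 0 in each gradient. These log2 medians were 4.87, 4.51 and 4.82 in disomes and 5.12, 4.95 and 5.57 in monosomes. Counts above 0 and medians of lists and length classes can include such mRNAs. The median mRNA had 28.2, 21.8 and 27.2 mRNA TPM in disomes and 33.7, 29.8 and 46.4 in monosomes, so the log2 differences stand higher than the printed mRNA TPM alone would give (median difference 0.08 with centring and −0.40 without). A limma fit over the 12 libraries at 42 °C, in which pools 3 and 4 of the same gradients add to the estimate of spread, with pool and gradient as terms, tested 3159 mRNAs that had at least 10 mRNA TPM in at least 3 of them. After Benjamini-Hochberg adjustment at 5%, 6 mRNAs were higher in disomes (0.19% of those tested) and 0 were lower (0%). At an unadjusted p below 0.05, 408 mRNAs (12.9%) differed, 281 of them (8.9%) higher and 127 (4.02%) lower in disomes. The disome and monosome libraries did not overlap for 240 mRNAs with disomes higher (7.6%) and 146 with disomes lower (4.62%). The central range was narrow: between the 5th and 95th percentile the log2 difference ran from −1.22 to 1.82, and of the 702 mRNAs averaging 100 mRNA TPM or more, 85.0% lay within 1 log2 unit of 0. When the spread was taken from the 6 disome and monosome libraries alone, 0 mRNAs passed and 239 had an unadjusted p below 0.05.

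STF2 was the most abundant of the 6. It encodes a small protein that helps to stabilise the inhibited mitochondrial ATP synthase and that belongs to the general stress response. STF2 had 51824, 74956 and 48315 mRNA TPM in the disome libraries and 22426, 33313 and 29017 in the monosome libraries. Every disome library lay above every monosome library, and the log2 difference was 1.51 ± 0.14 (SE), with 1.46, 1.6 and 1.48 in the 3 gradients and an adjusted p of 0.00528 by limma. At 30 °C its log2 difference was 1.05 (adjusted p for the 42 °C minus 30 °C difference 0.672).

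QCR9, which encodes a small subunit of respiratory complex III, had 465, 403 and 448 mRNA TPM in disomes and 137, 84.1 and 169 in monosomes. The groups were well apart, with a log2 difference of 2.28 ± 0.22 (SE) and an adjusted p of 0.00528 by limma. No count of reads was obtained for QCR9. At the usual step, 1 read was worth 11.2, 14.9 and 15.5 mRNA TPM in the monosome libraries, so the monosome values of QCR9 are few reads. GRX1, a glutaredoxin that reduces disulfides with glutathione, had 3641, 2838 and 2881 mRNA TPM in disomes and 1835, 1893 and 2151 in monosomes, a log2 difference of 1.14 ± 0.15 (SE, adjusted p = 0.0396). These values amount to 128, 135 and 140 reads of GRX1 in disomes and 54, 42 and 46 in monosomes, when the step of its values is taken as 1 read. RTC3, a stress-induced gene, had 11557, 18445 and 7905 mRNA TPM in disomes and 6394, 10310 and 6273 in monosomes. The RTC3 groups overlapped across gradients, but each disome library was above its own monosome library, by 1.10, 1.27 and 1.08 on the log2 scale (mean 1.15 ± 0.16 SE, adjusted p = 0.0451). RTC3 amounted to 421, 909 and 398 reads in disomes and 195, 237 and 139 in monosomes.

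The other calls rest on fewer reads still. MRA1 (YPR010C-A), a short open reading frame, had 215, 317 and 1708 mRNA TPM in disomes and was listed at 0 in all 3 monosome libraries (adjusted p = 0.000874 by limma). In steps of 1 read this is 1, 2 and 11 reads in disomes and 0, 0 and 0 in monosomes, where 1 read would have been worth 256 mRNA TPM in gradient 1. HMLALPHA1, the silent mating-type copy of the alpha1 regulator, which has a near-identical copy at the MAT locus that shares its reads, had 9.41, 13.9 and 20.4 mRNA TPM in disomes, or 1, 2 and 3 reads, and was listed at 0 in monosomes (adjusted p = 0.0314). No fold is given for either, and the depth of the monosome libraries cannot show whether they are absent there. In all, 17 mRNAs, these included, were above 0 in all 3 disome libraries and at 0 in all 3 monosome libraries, and 14 mRNAs showed the reverse.

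Most of these calls needed all 3 gradients. MRA1 passed whichever gradient was left out. STF2 passed without gradient 1 (adjusted p = 0.0181 by limma) and not without gradient 2 or 3 (0.284 and 0.226). QCR9 (adjusted p between 0.0827 and 0.131), GRX1 (0.0993 to 0.37), RTC3 (0.111 to 0.375) and HMLALPHA1 (0.108 to 0.36) did not pass when any 1 gradient was left out. The log2 difference of STF2 stayed between 1.47 and 1.54 in these fits, and that of QCR9 between 2.08 and 2.42. Without the gradient as a block, QCR9, MRA1 and HMLALPHA1 passed and STF2 (adjusted p = 0.1999), GRX1 (0.106) and RTC3 (0.503) did not.

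**Figure D2:**
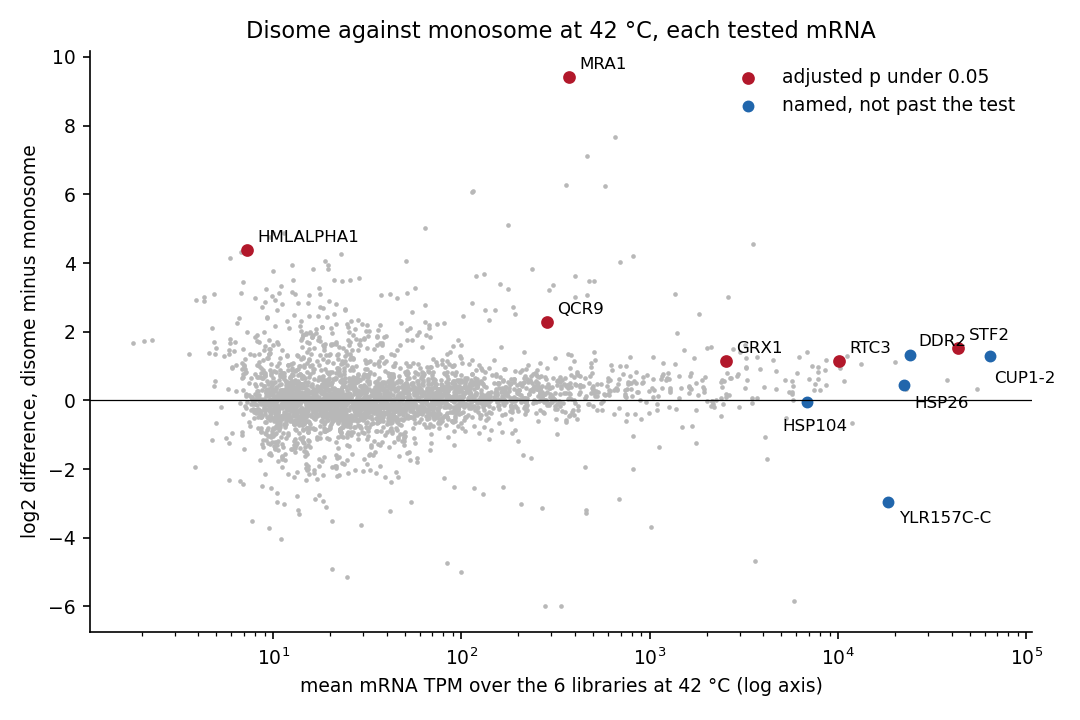
Log2 difference of each of 3159 tested mRNAs (disome minus monosome at 42 °C, centred on the median mRNA of each library) against its mean mRNA TPM over the 6 libraries (log axis); red points passed an adjusted p of 0.05 and blue points are named mRNAs that did not. The spread is wide at low levels and narrow at high levels, the 6 calls are all above 0, and STF2 and RTC3 are the calls of highest level.

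Several mRNAs of small proteins came close to the threshold on the higher side, of which STF1, QCR6 and NHP6B were chosen after their values were seen. DDR2, a stress-induced gene, had 29003, 31661 and 32698 mRNA TPM in disomes and 17726, 19774 and 14416 in monosomes, with no overlap (log2 difference 1.33, adjusted p = 0.0639 by limma). ATP19, a small subunit of the mitochondrial ATP synthase, had 12066, 11828 and 18599 mRNA TPM in disomes and 7833, 5819 and 10350 in monosomes (1.31, adjusted p = 0.0639). STF1, a relative of STF2 that inhibits the same ATPase, stood at 2262, 1818 and 1993 in disomes and at 1175, 1091 and 809 in monosomes (1.47, adjusted p = 0.0639). QCR6, of complex III like QCR9, had a log2 difference of 1.27 (adjusted p = 0.0639), and NHP6B, a chromatin protein of the high-mobility group, 1.27 (adjusted p = 0.0678). In reads, DDR2 had 347 in the 3 disome libraries together and 107 in the 3 monosome libraries, ATP19 205 and 63, and STF1 76 and 22.

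On the lower side, the deposited entry YLR157C-C had the highest level. It lies at XII:482059-482190 in the R64 build and shares 105 nt with a 5S rRNA gene, RDN5-4 (XII:482045-482163). YLR157C-C had 1771, 3926 and 2989 mRNA TPM in disomes and 33136, 54254 and 14555 in monosomes, a log2 difference of −2.96 ± 0.54 (SE, adjusted p = 0.0678 by limma). It ran in the direction of 5S rRNA, and whether its reads came from an mRNA or from 5S rRNA was not tested. MPP6, which encodes a cofactor of the nuclear exosome, was at 9.41, 11.5 and 11.3 mRNA TPM in disomes and at 67.4, 37.4 and 85.8 in monosomes (−1.91, adjusted p = 0.0639). A read was worth 9.41, 6.95 and 6.81 mRNA TPM in these disome libraries at the usual step. The MPP6 values there are thus close to that of 1 read, and those in monosomes are few reads. YCL042W, an open reading frame without a standard name, amounted to 10, 17 and 15 reads in disomes and 75, 27 and 37 in monosomes (log2 difference −1.99, adjusted p = 0.0999). MPP6 and YCL042W, chosen after their values were seen, did not overlap between the pools.

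The 10 most abundant mRNAs by mRNA TPM were mostly messages of small stress and mitochondrial proteins, a ranking that the larger step of short transcripts raises. In disomes of gradient 1, a read was worth 393 mRNA TPM for HOR7 and COX9 and 590 for YLR157C-C, against 9.41 at the usual step. YLR157C-C amounted to 3, 9 and 7 reads in disomes and 47, 58 and 15 in monosomes. CUP1-2, a metallothionein that binds copper and has an identical gene copy that shares its reads, had 109174, 56546 and 77251 mRNA TPM in disomes and 63778, 41436 and 33695 in monosomes (log2 difference 1.28 ± 0.30 SE, adjusted p = 0.137). HSP12, a membrane-stabilising protein of the general stress response, had 53736, 58177 and 43151 in disomes and 67363, 59810 and 44780 in monosomes (0.34 ± 0.24 SE, adjusted p = 0.591). HSP26 had 16713, 27184 and 23104 in disomes and 19426, 26337 and 21633 in monosomes (0.45, adjusted p = 0.375). HOR7 was at 0.34, YBR085C-A at 0.58, TMA10 at 1.05 and COX9, a subunit of cytochrome c oxidase, at 1.13, and STF2, DDR2 and YLR157C-C, given above, complete the 10. Of these 10, only STF2 passed the test.

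**Figure D3:**
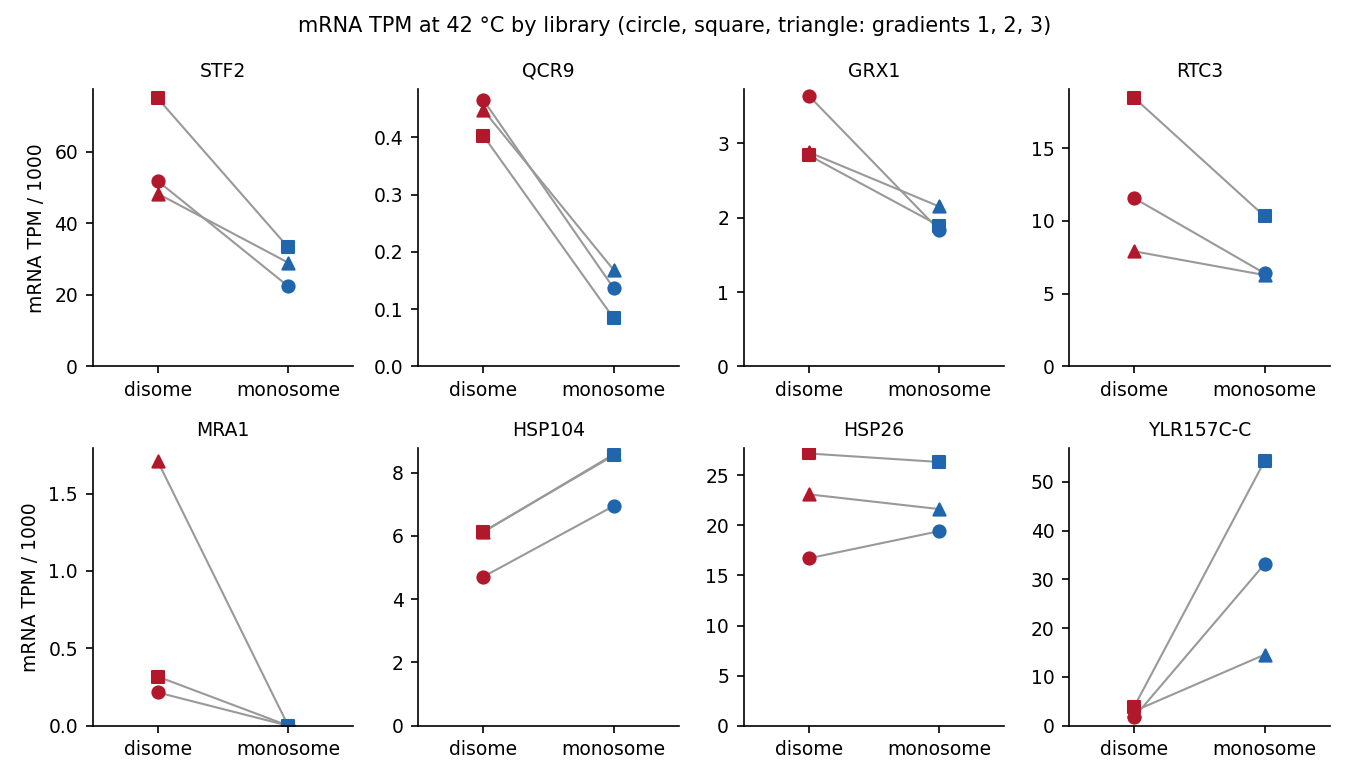
mRNA TPM (axes in units of 1000, linear from 0) of 8 named mRNAs in the 3 disome (red, left) and 3 monosome (blue, right) libraries at 42 °C, with lines joining pools of the same gradient. STF2, QCR9, GRX1 and RTC3 are higher in the disome library of each gradient, MRA1 is listed at 0 in monosomes, HSP26 overlaps between the pools, and HSP104 and YLR157C-C are lower in the 3 disome libraries on this uncentred scale.

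Coding length went with the difference between the pools. Coding length was taken as the genomic span where this is a multiple of 3, without cytoplasmic ribosomal protein genes, many of which have introns. Among the 2970 tested mRNAs so measured, the 151 with a coding length below 300 nt had a median log2 difference of 0.65, and 109 of them (72.2%) were above 0. The median was 0.49 for the 251 mRNAs from 300 to under 450 nt, 0.30 for the 275 from 450 to under 600 nt and 0.17 for the 604 from 600 to under 900 nt. It lay at 0.01 for the 538 from 900 to under 1200 nt, at −0.02 for the 650 from 1200 to under 1800 nt, at −0.09 for the 395 from 1800 to under 3000 nt and at −0.10 for the 106 of at least 3000 nt, of which 36.8% were above 0. On this centred scale, messages of the shortest proteins thus stood higher in disomes than those of long proteins. An mRNA at 0 in both pools also stands above 0 on it.

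The median of mRNAs below 450 nt exceeded that of mRNAs of at least 1200 nt by 0.61 in the fit, and by 0.33, 0.54 and 0.72 in gradients 1, 2 and 3. The same difference was 0.24 at 30 °C, and 0.03, 0.29 and 0.35 in the 3 gradients there. All 6 values were above 0, and the ranges at the temperatures overlapped. At 30 °C the gradient medians below 300 nt were 0.03, 0.19 and 0.40. These equal the values of HMLALPHA1, which was at 0 in all 6 libraries there, so mRNAs at 0 in both pools set them. The same holds at 42 °C for the median from 300 to under 450 nt in gradient 1, 0.25. The 6 values therefore hold a part that comes from the centring. Across mRNAs, Spearman's rho between coding length and log2 difference was −0.27 at 42 °C and −0.20 at 30 °C, a description over genes that share libraries. Shorter mRNAs also had higher mean levels (rho −0.40). Among mRNAs averaging 100 mRNA TPM or more the medians were 0.67 below 300 nt (139 mRNAs), 0.48 from 300 to under 450 nt (115), 0.14 from 900 to under 1200 nt (97) and 0.04 from 1200 to under 1800 nt (82). This cut does not match reads between classes. In disomes of gradient 1, a read of ATP19 (207 nt) was worth 262 mRNA TPM, against 9.41 at the usual step. On the 25S rRNA scale, which is not centred, an mRNA at 0 in both pools stays at 0. Every length class was above 0 on it, at 2.83-fold below 300 nt and 1.59-fold from 3000 nt. STF2, QCR9, GRX1 and RTC3 have genomic spans of 255, 414, 333 and 336 nt, that of QCR9 with an intron. Of the 2420 tested mRNAs with a span of at least 600 nt, 0 passed the limma test when fitted on their own, with 300 at an unadjusted p below 0.05.

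**Figure D4:**
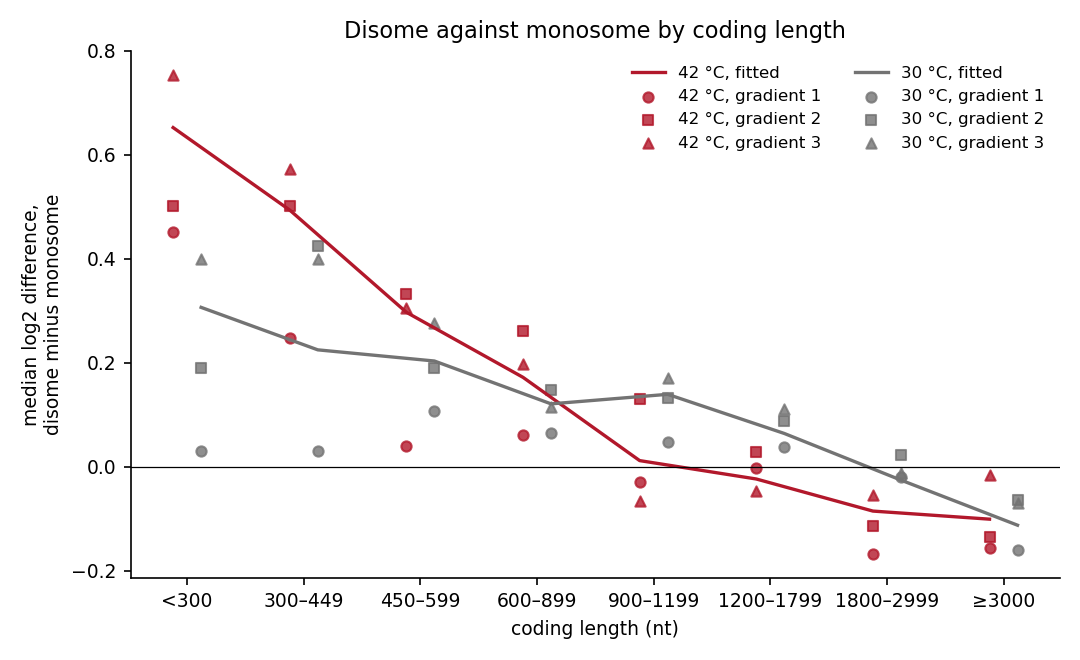
Median log2 difference between disome and monosome in 8 classes of coding length, at 42 °C (red) and 30 °C (grey); lines are fitted values and points are the 3 gradients. At 42 °C the median runs from 0.65 below 300 nt to −0.10 from 3000 nt, and at 30 °C from 0.31 to −0.11. The gradient points below 300 nt at 30 °C equal the value of an mRNA at 0 in both pools.

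The gene lists were read against the median of all tested mRNAs, 0.08, of which 55.7% were above 0, and against the call rate of 0.19%. In the translation machinery, the cytoplasmic ribosomal protein mRNAs had a median log2 difference of 0.70, with 88 of 118 tested members above 0 and 0 called in either direction (15 had an unadjusted p below 0.05 on the higher side and 1 on the lower side). Their medians in the gradients were 0.25, 0.43 and 0.82. The values in gradients 1 and 2 equal that of an mRNA at 0 in both pools. Members at 0 thus set the median there, through the centring. RPL38, of the large subunit, had 7554, 2559 and 6605 mRNA TPM in disomes and 2820, 1995 and 5434 in monosomes (1.16, adjusted p = 0.279 by limma). RPL41B, whose span is 78 nt, had 1156, 1159 and 0 mRNA TPM in disomes and 21377, 6235 and 5058 in monosomes (−5.84 ± 3.08 SE, adjusted p = 0.471), and it has a near-identical paralog. Mitochondrial ribosomal proteins had a median of 0.27 over 61 members and initiation factors −0.08 over 22 (−0.05, 0.09 and 0.10 in the gradients). Elongation and termination factors had a fitted median of 0.34 over 15. Their gradient medians of −0.05, 0.06 and 0.24 all lay below it, and gradient 1 did not share the sign. Aminoacyl-tRNA synthetases were at 0.02 over 10 and ribosome biogenesis factors at 0.23 over 10. All of these lists had 0 called. Of the hibernation factors, which bind idle ribosomes, STM1 had 50.4, 34.2 and 50.1 mRNA TPM in disomes and 27.4, 11.05 and 51.5 in monosomes (1.26, adjusted p = 0.187), and LSO1 and LSO2 were at 0.79 and 0.13 (adjusted p = 0.174 and 0.875). SUI1, the initiation factor eIF1 that guards start codon choice, was at 0.85 (adjusted p = 0.140).

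Mitochondrial and stress genes included 4 of the 6 calls. The respiratory chain and ATP synthase list had a median of 0.54, with 34 of 39 tested members above 0, 1 called higher (QCR9) and 0 lower; its medians in the gradients were 0.24, 0.68 and 0.72. Its other abundant members were COX9, QCR8 (0.98, adjusted p = 0.198) and ATP19. Its tested members have a median span of 447 nt, against 969 nt for all tested mRNAs. The general stress list had a median of 0.35, with 31 of 35 above 0, 2 called higher (STF2 and RTC3) and 0 lower. The antioxidant list, of enzymes that remove oxidants, had a median of 0.35, with 21 of 29 above 0 and 1 called (GRX1); SOD1, the copper and zinc superoxide dismutase, was at 0.66 (adjusted p = 0.315). The general stress list took 20.3%, 25.4% and 18.4% of the mRNA sum in disomes and 16.9%, 18.2% and 13.99% in monosomes. The respiratory list took 5.93%, 7.73% and 8.49% in disomes and 4.39%, 5.99% and 5.32% in monosomes. Each disome library exceeded the monosome library of its gradient for both. The cytoplasmic ribosomal protein list took 3.32%, 1.91% and 4.51% in disomes and 5.22%, 2.36% and 4.00% in monosomes, lower in disomes in 2 of 3 gradients although the median of its members was the highest. The Hsf1-driven chaperones took 6.50%, 9.002% and 8.13% in disomes and 7.66%, 9.53% and 9.82% in monosomes, lower in disomes in 3 of 3.

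The chaperone mRNAs of the heat shock response had small differences, most of them above 0. The list of Hsf1-driven chaperones had a median of 0.22, with 22 of 26 members (84.6%) above 0 and 0 called; adjusted p-values stand in brackets. HSP104 was at −0.03 ± 0.19 (SE, adjusted p = 0.96), SSA4 at 0.26 (0.658), HSP82, the inducible Hsp90, at 0.20 (0.697), CPR6, a cyclophilin that works with Hsp90, at 0.32 (0.440) and HSP42, a small heat shock protein that sequesters misfolded proteins, at 0.01 (0.992). In mRNA TPM without centring all 3 disome libraries lay below the monosome libraries for HSP104. BTN2, a sequestrase, had 1395, 3013 and 2234 mRNA TPM in disomes and 1705, 4231 and 5178 in monosomes (−0.19, adjusted p = 0.661). Mitochondrial chaperones had a median of 0.30 over 9 members, in which HSP10, the short lid of the mitochondrial chaperonin, was at 0.81 (adjusted p = 0.187) and HSP60, its long partner, at −0.07 (0.900). Endoplasmic reticulum folding factors had a median of 0.11 over 16, the proteasome 0.12 over 36 and ubiquitin-related genes 0.21 over 24, with 0 called in each. SEM1, the smallest proteasome lid subunit, had a log2 difference of 1.25 (0.182), and UBI4, the stress-induced polyubiquitin gene, 0.51 (0.365).

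Metabolic lists lay near the median of all mRNAs. Glycolysis and fermentation was at 0.05 over 23 members, with TDH3, glyceraldehyde-3-phosphate dehydrogenase, at 0.44 (adjusted p = 0.336) and PGK1 at 0.02 (0.986). Trehalose and glycogen metabolism was at 0.06 over 16 and the citrate cycle at 0.10 over 15. Amino acid synthesis had the lowest median, −0.21, with 10 of 35 members above 0, 0 called and 0 at an unadjusted p below 0.05; its gradient medians were 0.04, −0.38 and −0.20, so gradient 1 did not share the sign. GLN1, glutamine synthetase, had 734, 174 and 470 mRNA TPM in disomes and 811, 343 and 1361 in monosomes (−0.41, adjusted p = 0.471). Ergosterol synthesis was at 0.07 over 16, cell wall genes at 0.14 over 23 and membrane transport at 0.13 over 21, with 0 called in each.

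Regulatory and structural lists had 0 calls. Among all lists with 0 calls, an unadjusted p below 0.05 on the higher side, which 8.9% of all tested mRNAs had, was found for 5 of 26 Hsf1-driven chaperones, 3 of 9 mitochondrial chaperones and 3 of 11 histones. It was also found for 3 of 16 endoplasmic reticulum folding factors, 3 of 18 mRNA decay factors, 3 of 23 cell wall genes, 4 of 24 ubiquitin-related genes, 5 of 36 proteasome subunits and 5 of 61 mitochondrial ribosomal proteins. At most 2 members had it in each of the other lists with 0 calls, apart from the 15 cytoplasmic ribosomal proteins given above. On the lower side, which 4.02% of all had, at most 2 members of a list did. Messages under control of upstream open reading frames had a median of −0.17, with 2 of 9 tested members above 0. GCN4, the activator of amino acid synthesis, had 16.7, 7.30 and 10.4 mRNA TPM in disomes and 7.17, 33.7 and 57.7 in monosomes (−0.63 ± 0.64 SE, adjusted p = 0.72), a level near that of a few reads, and HAC1, the unfolded protein regulator, was lower in disomes in 3 of 3 gradients without passing the test (−0.40, adjusted p = 0.604). Stress transcription factors were at −0.06 over 15, RNA-binding proteins of stress granules at −0.01 over 21, mRNA decay factors at 0.06 over 18, histones at 0.24 over 11 and actin-related genes at 0.24 over 20. TPM1, the major tropomyosin, which coats actin cables, had 687, 952 and 810 mRNA TPM in disomes and 559, 485 and 649 in monosomes (1.00, adjusted p = 0.0678). ACT1 was at 0.26 (0.715), PMA1, the plasma membrane proton pump, at −0.07 (0.887) and PAB1, the poly(A)-binding protein, at 0.32 (0.769), the last at 7.30 to 8.56 mRNA TPM in disomes and 3.37 to 18.2 in monosomes. FAS1, of fatty acid synthesis, stayed below the level needed for testing.

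**Figure D5:**
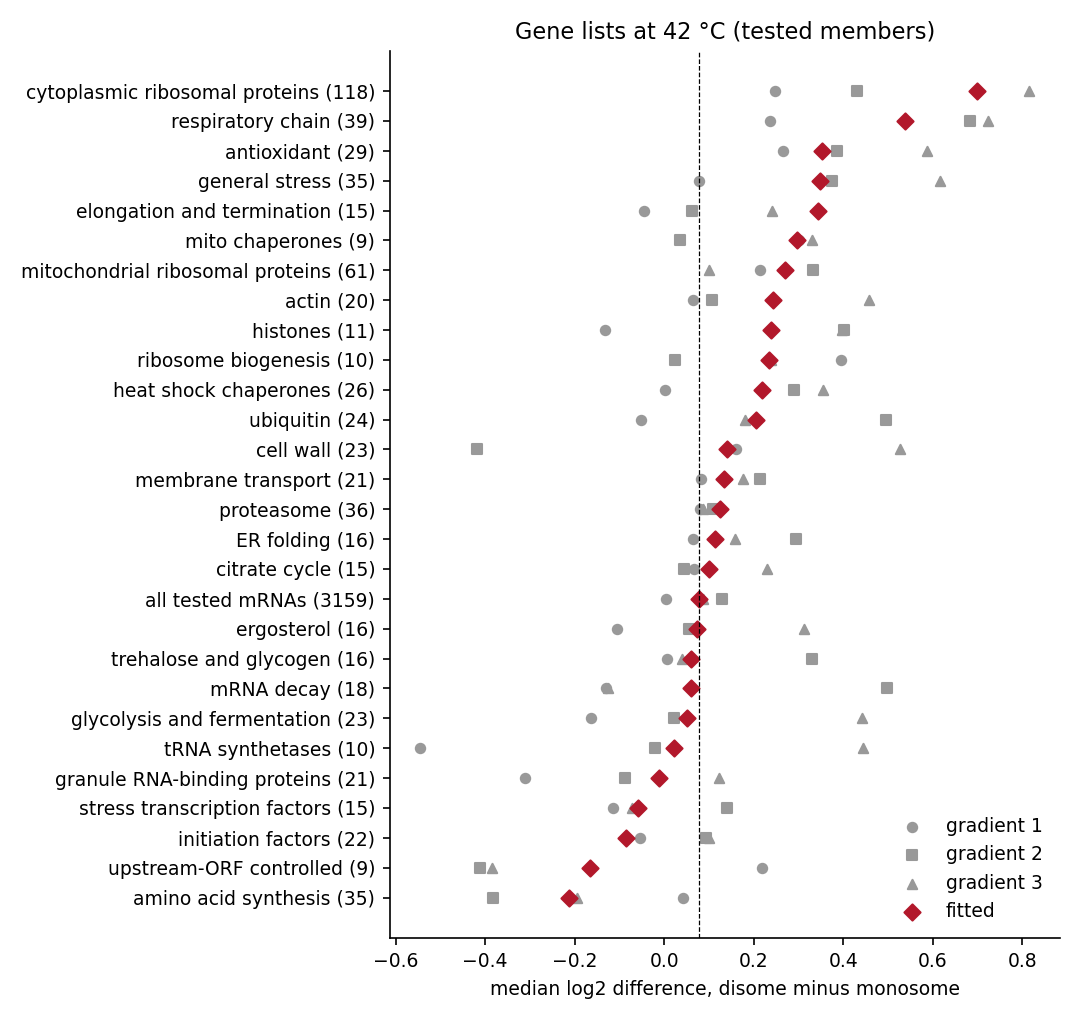
Median log2 difference between disome and monosome at 42 °C of the tested members of each gene list (number in brackets); red diamonds are fitted values, grey symbols the 3 gradients, and the dashed line marks the median of all tested mRNAs, 0.08. Cytoplasmic ribosomal proteins (0.70) and the respiratory chain (0.54) lie highest and amino acid synthesis (−0.21) lowest. The cytoplasmic ribosomal protein medians of gradients 1 and 2 equal the value of an mRNA at 0 in both pools.

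Set against 25S rRNA in place of the median mRNA, most messages were higher in disomes. The median log2 difference of the 3159 mRNAs on this scale was 0.85 (1.80-fold), 89.8% were above 0, and limma with Benjamini-Hochberg adjustment called 919 higher (29.1%) and 8 lower (0.253%). The calls included 24 of 26 Hsf1-driven chaperones, 31 of 35 general stress genes, 28 of 36 proteasome subunits, 24 of 39 of the respiratory chain list and 17 of 118 cytoplasmic ribosomal proteins, and 0 members of these lists were called lower. HSP104 was at 0.83 (adjusted p = 0.0106) and TDH3 at 1.31 (adjusted p = 0.00255) on this scale. The 8 lower ones were YMR158C-A, MMO1, YNL184C, PAM17, YLR157C-C, KTR2, RPC37 and MPP6, at log2 differences between −5.42 and −1.07. They are named because they are few, after their values were seen. YMR158C-A, MMO1 and YNL184C were listed at 0 in all disome libraries, so their log2 differences, which include the lower end of that range, depend on the pseudocount. YMR158C-A was also at 0 in monosomes of gradient 2, with 705 and 970.3 mRNA TPM in gradients 1 and 3. RPC37, a subunit of RNA polymerase III, had 9.41, 6.95 and 6.81 mRNA TPM in disomes, the value of 1 read in each, and 33.7, 29.8 and 108.2 in monosomes.

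The difference between the pools was also set against that at 30 °C for each mRNA. The interaction fit over all 24 libraries tested 3949 mRNAs and called 1 higher (0.0253%) and 0 lower (0%) by limma at an adjusted p below 0.05, with 370 (9.37%) at an unadjusted p below 0.05. The call was MRA1, which had 1952, 4454 and 3464 mRNA TPM in disomes and 2778, 2810 and 1844 in monosomes at 30 °C, so that it was above 0 in all 6 of these libraries (log2 difference of differences 8.86, a value that depends on the pseudocount). At 30 °C alone, 0 of 3949 mRNAs were called between the pools (0%), with 327 (8.28%) at an unadjusted p below 0.05. Across the 3159 mRNAs tested in both, which are not independent replicates, Spearman's rho between the log2 differences at 42 °C and at 30 °C was 0.19. Respiratory chain and cytoplasmic ribosomal protein mRNAs had medians of 0.54 and 0.70 at 42 °C and of 0.55 and 0.55 at 30 °C, so these lists stood above the median in both conditions. For the ribosomal proteins at 42 °C, members at 0 in both pools set the medians of gradients 1 and 2 (0.25 and 0.43), as given above.

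The count of calls depended on the libraries that set the spread. The median SD over mRNAs was 0.49 in disomes and 0.55 in monosomes at 42 °C, and 0.30 in disomes and 0.36 in monosomes at 30 °C. In pools 3 and 4 at 42 °C it was 0.40 and 0.46, lower than in disomes and monosomes. The fit over the 12 libraries at 42 °C takes the spread of an mRNA as the same in all 4 pools. With all 24 libraries in the limma fit, which takes the spread as the same at both temperatures, 56 mRNAs were higher in disomes at 42 °C (1.77%) and 25 lower (0.791%), and 5 of the 6 mRNAs called from the 42 °C libraries were among them, all but RTC3. The 56 higher mRNAs had a median span of 456 nt and the 25 lower ones 873 nt, against 969 nt for all tested mRNAs. The median level of the 25 lower ones was 20.6 mRNA TPM, worth few reads at the steps given above, and that of the 56 higher ones 98.96. The higher ones included 7 of the respiratory chain list, 6 cytoplasmic ribosomal proteins, 3 of the general stress list and 3 of the antioxidant list.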

How the data were processed

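The deposited table holds TPM for 6087 entries (5959 mRNAs, 5 rRNAs, 113 non-coding RNAs, 5 other RNAs and 5 spike-ins) in 24 libraries. Per the submitters' processing notes, the authors trimmed reads with Trim Galore 0.6.5 and quantified them with Salmon 1.9.0 against build R64; settings are not stated there. All 6082 gene IDs matched the reference table of RefSeq genes, which gave symbols and spans. Libraries were grouped by title, and columns by their names.

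TPM was rescaled to 1000000 over the mRNA entries, a pseudocount of 1 added, log2 taken and each library centred on its median tested mRNA. mRNAs reaching 10 mRNA TPM in 3 or more of the 12 libraries at 42 °C were fitted in limma 3.58.1 (R 4.3.3) with pool and gradient as terms, a mean-variance trend and Benjamini-Hochberg adjustment at 5%, two-sided; the fit was tested on simulated data. The 42 °C minus 30 °C difference was fitted over 24 libraries. Folds are on the log2(value + pseudocount) scale and understate low genes. Ratios between RNA classes used TPM sums, compared by exact sign flips over 3 gradients and exact permutation of 3 against 3.

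Pools of a replicate number share a gradient by design, so the gradient is a block. Residuals of pools of the same number correlated at 0.087, 0.099 and 0.036 at 42 °C, and those of different numbers at between −0.10 and 0.017.

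Depth per library is unknown, since TPM keeps none. The step of 1 read was taken as the lowest value shared by many mRNAs. For single genes the values in 12 libraries were divided by it, and a gene's own step was accepted where all came out whole within 0.02 steps, which held for 44 of the 107 named genes tried; a count so obtained could be a multiple.

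Named mRNAs are the 12 largest differences each way among those past 5% that average 20 mRNA TPM or more over the 6 libraries and keep their sign in 3 gradients, the 10 most abundant, up to 3 most abundant tested members of each list, a fixed set of heat, hibernation and reference genes, and the 6 largest each way past 5% in the interaction fit. HMLALPHA1 lies below that mean and was named as the remaining call. The members and lists were chosen with earlier results of these data known. Alternatives were other pseudocounts, filters, scales (25S rRNA, spike-ins, quantile, uncentred, as deposited), fits, denominators and leaving out each gradient. Python 3.11.15, numpy 2.4.6, pandas 2.3.3, scipy 1.17.1 and matplotlib 3.10.9 were used. No sequences are printed.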

Additional observations from a re-analysis of the deposited data

Results flagged for a closer look

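MRA1 had a disome to monosome difference at 42 °C that exceeded that at 30 °C by 8.86 on the log2 scale, past 5% in the limma interaction fit, and it rests on the 0 in all monosome libraries at 42 °C.

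The 25S rRNA against the spike-ins differed in sign between the temperatures: the log2 difference of disome minus monosome was 1.10, 0.77 and 0.53 at 42 °C and −0.20, −0.08 and −0.05 at 30 °C. The means differed by 0.91, and exact permutation of the 3 against 3 gradient differences gave p = 0.1, the smallest it allows. At 42 °C alone, the exact sign-flip test over the gradients gave p = 0.25, the smallest it allows. Exact permutation of 3 disome against 3 monosome libraries, which ignores the pairing by gradient, gave p = 0.5.

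KAR2, the Hsp70 of the endoplasmic reticulum, was at −0.24, −0.39 and −0.21 in the gradients at 42 °C and at 0.11, 0.19 and 0.09 at 30 °C, a difference of −0.39 (adjusted p = 0.704 by limma). ERG10, of ergosterol synthesis, was at −0.22, −0.67 and −0.11 at 42 °C and at 0.19, 0.05 and 0.34 at 30 °C, a difference of −0.52 (adjusted p = 0.628). MCO6 was at 1.99, 2.65 and 2.88 at 42 °C and at −7.65, −2.11 and −10.002 at 30 °C, a difference of 9.11 (adjusted p = 0.084). At 30 °C MCO6 had 0, 192 and 0 mRNA TPM in disomes and 204, 951 and 1352 in monosomes, so its 30 °C values turn on libraries at 0. Its 42 °C values rest on few reads, 4, 10 and 10 in disomes and 1, 1 and 1 in monosomes. KAR2, ERG10 and MCO6 did not pass the test of the difference.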

How the results depend on the processing

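The number of mRNAs called between disomes and monosomes at 42 °C, 6 as reported, was 17 (13 higher and 4 lower) with a pseudocount of 5. With no filter on low values it was 14 (13 higher and 1 lower), and with a filter of 50 mRNA TPM 17 (14 higher and 3 lower). Quantile normalization gave 3 (2 higher and 1 lower). Without median centring the number was 7 (4 higher and 3 lower), at a median log2 difference of −0.40, and 4 of these were among the 6 reported. The absence of lower calls thus depended on the setting. The number of calls was 0 with the 6 libraries only and 0 among spans of at least 600 nt, where fewer libraries or genes entered. It was 81 (56 higher, 25 lower) with all 24 libraries in the fit, 1 for a change of at least 1 log2 unit, and 3 to 6 when a gradient was left out. Of the 6 reported calls, 2 remained without replicate 1, 1 without replicate 2 and 1 without replicate 3. Pools of a gradient are paired, and with no replicate block 3 mRNAs were called. On the 25S rRNA scale 927 were called, on the spike-in scale 2093 and with TPM as deposited 2464, as the median difference moved to 0.85, 1.48 and 1.99. Of 17 alternatives, MRA1 kept its call in 16, QCR9 in 12, STF2 in 11, GRX1 in 8 and RTC3 in 6, and HMLALPHA1 in 10 of the 16 that tested it.

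The 42 °C minus 30 °C fit, with 1 call as reported, gave 4 with a pseudocount of 5, 4 with no filter, 6 without median centring (1 higher, 5 lower), 147 on the spike-in scale, 1532 with TPM as deposited and 2 with no trend. Leaving out a gradient gave 1 to 15, with 15 without replicate 1 and 10 without replicate 2. The cause was not tested for these changes other than the scales. The short minus long difference was 0.33 in gradient 1 alone.

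Some named mRNAs below 0 on the centred scale, none of them called there, were above 0 and called higher on other scales. On the 25S rRNA scale these were BTN2 0.68, HSP104 0.83, HSP60 0.80, PMA1 0.79, RPN4 0.80, RPT1 0.76 and SBP1 0.85. On the spike-in scale they were ARC1 1.25, BAT2 1.56, BTN2 1.48, CAD1 1.54, CCW12 1.46, CIT2 1.38, CPA1 1.45, ERG10 1.17, GLN1 1.25, HAC1 1.20, HSP104 1.63, HSP60 1.596, IDH2 1.47, KAR2 1.38, PFY1 1.33, PMA1 1.58, RPN4 1.58, RPT1 1.55, SBP1 1.64, SCJ1 1.52 and TEF1 1.55. With TPM as deposited they were ARC1 1.82, BAT2 2.12, BTN2 2.04, CAD1 2.07, CCW12 2.03, CIT2 1.94, CPA1 1.98, ERG10 1.70, GLN1 1.81, HAC1 1.74, HSP104 2.20, HSP60 2.16, IDH2 2.03, KAR2 1.94, PFY1 1.89, PMA1 2.13, RPN4 2.14, RPT1 2.12, RUB1 1.46, SBP1 2.20, SCJ1 2.08, TEF1 2.12 and TYS1 1.55 (log2 differences). With a gradient left out, the log2 difference between disomes and monosomes stayed between 1.18 and 1.46 for mRNA against 25S rRNA and between −3.88 and −2.70 for 5S against 25S rRNA. Less the same at 30 °C, these log2 differences stayed between 0.43 and 0.92 for mRNA and between −4.14 and −2.59 for 5S rRNA. Depth limits low mRNAs: 100 mRNA TPM were 10.6, 14.4 and 14.7 reads in disomes and 8.90, 6.71 and 6.47 in monosomes at the usual step.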

Other observations

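Of all mRNAs, 3705 were above 0 in all 6 libraries and 357 were listed at 0 in all 6. Single libraries listed 1206, 1155 and 922 mRNAs at 0 in disomes and 1057, 1415 and 1105 in monosomes.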
